A study of Mus musculus with 12 samples.

Results

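The genes described here are 10 components of the transforming growth factor beta (TGF-beta) pathway in mouse CD4 T cells: the ligand gene Tgfb1, the receptor genes Tgfbr1 and Tgfbr2, the signal transducers Smad2, Smad3 and Smad4, the inhibitor Smad7, the repressors Ski and Skil, and Rara, which encodes retinoic acid receptor alpha. They were chosen by name, with earlier results of these data known, so shares of members set beside all genes below are descriptive. Each was read from 1 probe, the one with the highest mean signal among those that the platform annotation assigns to it. Of the 10 genes, 9 had a probe, with 17 probes in all, and 8 passed the filter on low signal, against 12119 tested genes of 17759 with a probe in the whole series. Smad4, the shared partner of the receptor-activated SMADs, had no probe in the annotation used and was not analysed here. The Smad7 probe lay between 4.29 and 4.67 and was above its array's median on 0 of 12 arrays, so Smad7 was not tested.

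Total RNA of 4 sorted populations was hybridised to 12 single-colour Illumina mouse arrays, 3 per population, and each value is a log2 intensity. Donors were C57BL/6 mice aged 8 to 12 weeks that carried a Foxp3GFP reporter, and their naive CD4 T cells either had Blimp1, the repressor encoded by Prdm1 (Ctrl), or were deficient in it (labelled Blimp1 CKO, called CKO below; which Cre line deletes it is not given in the sources). Ctrl and CKO cells, told apart by an allotype marker, were injected together into RAG1-/- hosts, which cannot form T or B cells but keep their other blood cells. Cells were collected 6 to 8 weeks later from pooled spleen, mesenteric lymph nodes and large intestinal lamina propria and kept for 4 h with PMA and ionomycin, which drive cytokine genes; every group received this stimulation. Foxp3-positive cells are called Treg (pTreg in the labels) and Foxp3-negative cells Teff. Arrays of a group are numbered 1 to 3. The labels do not say whether these come from separate hosts, so p-values measure only the spread between arrays, which may be technical. Each population was measured in bulk, so fewer cells of a type and less RNA per cell cannot be told apart.

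TGF-beta binds a receptor of type II (Tgfbr2), which then activates a type I partner (Tgfbr1, also called ALK5). The type I kinase phosphorylates Smad2 and Smad3, which enter the nucleus with Smad4, and Ski and Skil (SnoN) bind SMAD complexes and repress their targets. Smad7 blocks the receptors. In naive CD4 T cells TGF-beta helps to switch on Foxp3, and retinoic acid, acting through receptors such as Rara, enhances this conversion in the gut.

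The labelled cell types were checked first. Foxp3 stood at group means of 8.02 in Ctrl Treg and 8.05 in CKO Treg, and at 4.58 and 4.64 in Ctrl and CKO Teff, near the array medians of 4.655 to 4.677. Prdm1 signal was higher, not lower, on the arrays labelled CKO (9.04 against 5.77 in Treg and 8.26 against 4.92 in Teff); where its probe lies relative to the deleted part is not known here. Every genotype direction below therefore refers to arrays labelled CKO. Of 8 T cell markers, 6 had a probe, and their mean was 9.70 to 10.74 on all arrays. Neutrophil markers, all 10 past the filter on low signal, had a mean that ranged from 6.21 to 10.43 between arrays. Of these, Cxcr2 and Mmp8 stayed near the array medians, at no more than 5.05 and 4.77. B cell markers stayed at or below 4.68. Basophil and mast cell markers reached 7.29 and 7.64 on CKO Teff arrays 2 and 1, and were at most 5.11 on all others.

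Upstream sequence is shown for the 2 receptors, the ligand and Ski, the genes on which the results below turn. Tgfbr1 had the widest range of group means (2.23, against 0.92 for Ski, the next), while Tgfb1, Tgfbr2 and Ski varied together between arrays. Each run is the 250 bases before the first listed transcription start in RefSeq (build GRCm38.p6), 5′ to 3′ on the gene's strand. The Tgfbr1 run is chr4:47352972-47353221 on the plus strand, Tgfbr2 is chr9:116175364-116175613 on the minus strand, Tgfb1 is chr7:25686752-25687001 on the plus strand and Ski is chr4:155222536-155222785 on the minus strand. Capitals mark 2 motifs, read on either strand: CAGAC, the SMAD box, and GGGCGG, the GC box.
Tgfbr1: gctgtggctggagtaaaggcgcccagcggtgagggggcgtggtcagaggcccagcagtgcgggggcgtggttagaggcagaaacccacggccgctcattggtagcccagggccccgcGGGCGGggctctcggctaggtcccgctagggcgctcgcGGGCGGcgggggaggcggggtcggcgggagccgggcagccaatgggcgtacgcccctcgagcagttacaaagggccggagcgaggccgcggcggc
Tgfbr2: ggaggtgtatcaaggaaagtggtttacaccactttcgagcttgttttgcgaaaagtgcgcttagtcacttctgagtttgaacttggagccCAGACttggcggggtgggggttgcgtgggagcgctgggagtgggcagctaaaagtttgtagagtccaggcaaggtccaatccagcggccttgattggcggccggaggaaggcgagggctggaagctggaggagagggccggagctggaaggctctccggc
Tgfb1: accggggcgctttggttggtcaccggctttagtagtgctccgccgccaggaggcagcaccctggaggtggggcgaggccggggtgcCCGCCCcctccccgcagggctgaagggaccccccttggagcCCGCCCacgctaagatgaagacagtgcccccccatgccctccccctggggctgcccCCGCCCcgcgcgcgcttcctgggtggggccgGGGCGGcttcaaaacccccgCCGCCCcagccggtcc
Ski: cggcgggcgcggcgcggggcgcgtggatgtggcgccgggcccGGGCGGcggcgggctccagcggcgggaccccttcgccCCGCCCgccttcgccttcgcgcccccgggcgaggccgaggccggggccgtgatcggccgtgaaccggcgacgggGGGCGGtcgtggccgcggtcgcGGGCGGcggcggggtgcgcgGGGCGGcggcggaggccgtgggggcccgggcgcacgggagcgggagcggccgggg
These windows differ in composition and in motifs. GC content was 74.8% for Tgfbr1, 58.4% for Tgfbr2, 75.2% for Tgfb1 and 87.6% for Ski, against a median of 52.4% over 32851 windows of 27025 genes. The GC box occurred 2 times in the Tgfbr1 window, 5 times in that of Tgfb1, 5 times in that of Ski and 0 times in that of Tgfbr2, and 32.7% of all windows hold it. The SMAD box occurred 1 time in the Tgfbr2 window and in none of the other 3 shown; 42.2% of all windows hold it. In all, 10 windows of 6 of the 10 genes were searched (Tgfbr1 had 2 and Rara 4). Of those not shown, window 2 of Tgfbr1 and window 4 of Rara held 1 SMAD box each, and the remaining windows of Rara and that of Smad3 held none. Smad2, Smad4 and Smad7 were left out of this search, and Skil had no window in the source used. GTCTAGAC (a palindromic SMAD element), AGNGAAAG (the Blimp1 core) and AGGTCA (a nuclear receptor element) were each searched on both strands. They had 0 matches in the 10 windows of the 6 genes searched, and 0.167%, 7.3% and 14% of all windows hold them. Whether the members not searched hold these motifs was not tested. A match of this kind describes the letters only.

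Tgfbr1, the type I receptor, was the member that separated Treg from Teff. In Ctrl Treg its log2 intensity was 10.73, 10.99 and 9.95 on arrays 1, 2 and 3, and in CKO Treg 10.33, 9.78 and 9.32. In Ctrl Teff it was 9.12, 8.58 and 8.86, and in CKO Teff 8.76, 8.06 and 8.15. By this main probe the lowest of the 6 Treg arrays thus lay above the highest of the 6 Teff arrays. Group means ran from 10.56 ± 0.54 in Ctrl Treg through 9.81 ± 0.50 in CKO Treg and 8.86 ± 0.27 in Ctrl Teff to 8.32 ± 0.38 in CKO Teff (SD, n = 3 each). In that order the neighbours Ctrl and CKO Treg overlapped, as did Ctrl and CKO Teff.

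The questions asked of Treg and Teff were whether a gene differed in Ctrl cells, in CKO cells, and in the mean of both. Averaged over the genotypes, Tgfbr1 was higher in Treg by 1.60 ± 0.23 (log2, SE; 95% interval 1.09 to 2.10), which is 3.02-fold, with an adjusted p of 0.0042 by limma over all tested genes. In Ctrl cells it was higher by 1.70 ± 0.32, or 3.25-fold (adjusted p = 0.0345). In CKO cells the difference was 1.49 ± 0.32, or 2.81-fold, and did not pass (adjusted p = 0.0846). The cell type difference in CKO minus that in Ctrl was −0.21 ± 0.45 (unadjusted p = 0.654). The averaged difference passed in all 29 alternative settings and left-out arrays tried, between 1.11 and 1.87, whereas that in Ctrl cells alone passed in 16 of 29. It was lost without Ctrl Treg array 1 or 2, CKO Treg array 2, or any 1 of the Ctrl Teff arrays (adjusted p = 0.0619 to 0.164), and without Treg number 1 or 2 or any 1 Teff number in both genotypes (0.060 to 0.266).

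Tgfbr1 had 4 probes. A second kept probe lay between 4.58 and 5.56, above the array median on 9 of 12 arrays, and was higher in Treg by 0.62 ± 0.12 averaged over the genotypes (adjusted p = 0.0231 in the fit of every probe). A further 2 probes of the gene stayed between 4.30 and 4.76 and did not pass the filter. Neutrophil markers differed between arrays within each group: their mean was 9.58, 6.45 and 9.11 on Ctrl Treg arrays 1 to 3, and 8.35, 10.43 and 6.51 on Ctrl Teff arrays 1 to 3. Without the arrays of Teff number 2 and CKO Teff 1, those highest in neutrophil and basophil markers among Teff, the averaged Tgfbr1 difference was 1.61 (adjusted p = 0.0347). The arrays also fall into 2 sets of 6 by the 25th percentile of their signal, one made up of the first 6 and the other of the last 6 samples in the order of deposition. No label names a batch, and the Treg minus Teff difference of Tgfbr1 was 1.90 within one set and 1.51 within the other.

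**Figure D1:**
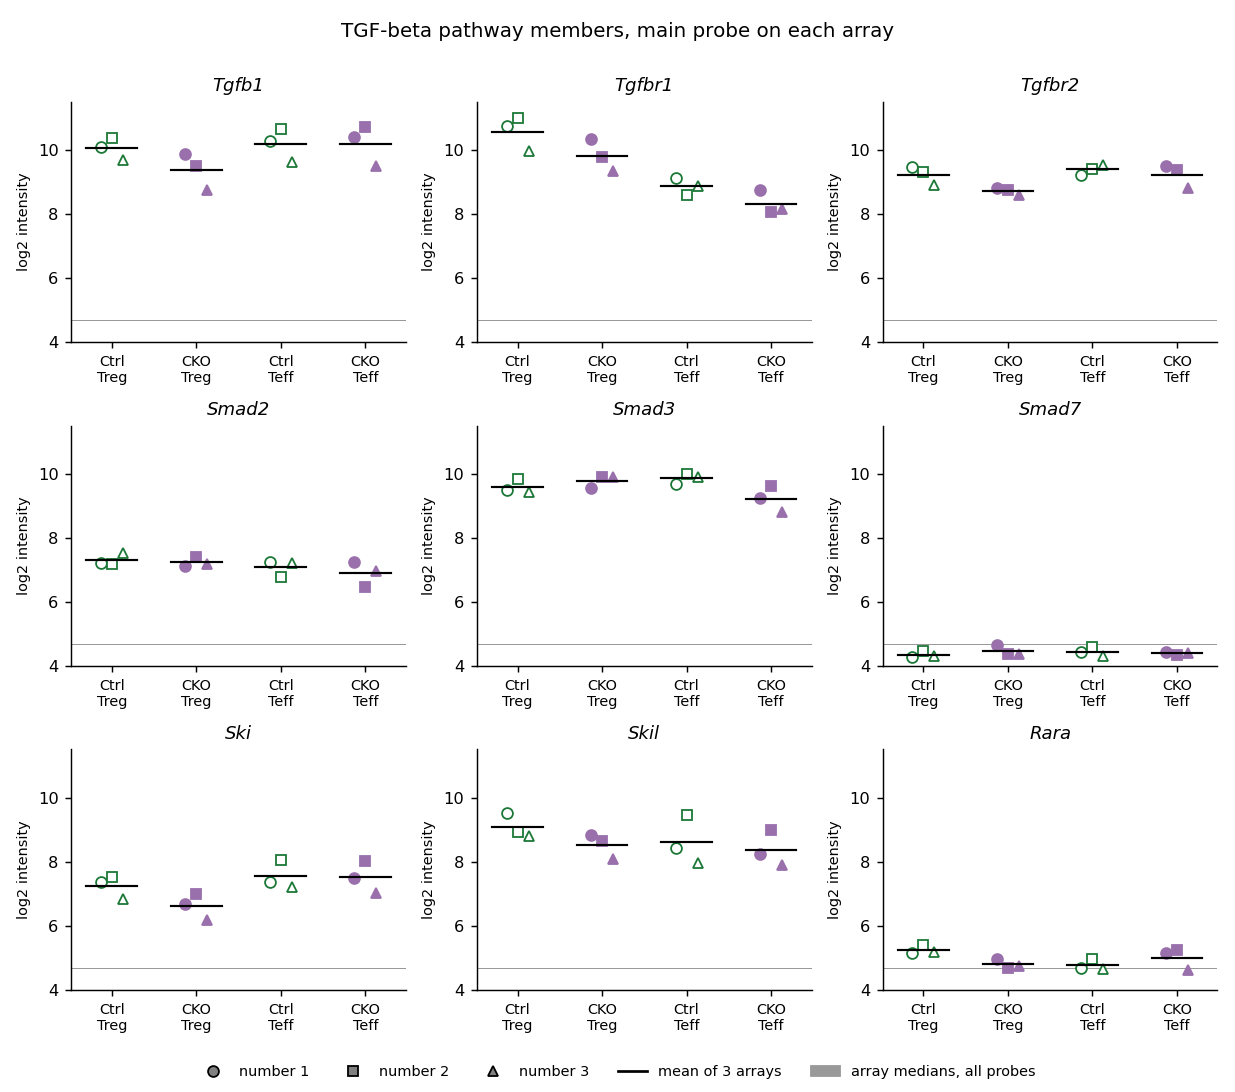
Log2 intensity of the main probe of the 9 measured genes (y axis) in the 4 groups (x axis). Open symbols are Ctrl and filled symbols CKO arrays, the symbol shape gives the array number, lines are means of 3 arrays, and the grey band spans the array medians. Tgfbr1 lies higher on all 6 Treg arrays than on any Teff array, and Smad7 stays at or below the band.

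The other 7 tested members did not pass between Treg and Teff in Ctrl, in CKO or averaged. For the comparison in Ctrl cells 1 of 8 members passed, where 1.01% of all tested genes did, and 2 had an unadjusted p under 0.05 (10.4% of all genes). In CKO cells 0 of 8 passed by limma (0.355% of all genes), with 4 at an unadjusted p under 0.05 (10.8% of all genes), and in the average 1 of 8 (3.2% of all genes), with 3 at an unadjusted p under 0.05 (15.5%). The median difference of the 8 members was 0.05 in Ctrl, −0.03 in CKO and 0.14 averaged, against 0.01, 0.03 and 0.02 over all tested genes. No overlap between the 3 Treg and 3 Teff arrays was seen for 2 members in Ctrl (Tgfbr1 and Rara) and 2 in CKO (Tgfbr1 and Ski), where 14.3% and 13.7% of all genes had none. Over all 6 Treg and 6 Teff arrays 1 member, Tgfbr1, had none, as had 2.37% of all genes.

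Tgfbr2, the ligand-binding type II receptor, did not follow Tgfbr1. It measured 9.47, 9.30 and 8.89 on the Ctrl Treg arrays, 8.81, 8.74 and 8.59 on the CKO Treg arrays, 9.22, 9.41 and 9.52 on the Ctrl Teff arrays, and 9.49, 9.38 and 8.81 on the CKO Teff arrays. The CKO Treg arrays were the lowest and only touched the range of CKO Teff at array 3. The averaged Treg minus Teff difference was −0.34 ± 0.14 (unadjusted p = 0.037, adjusted p = 0.276), opposite in sign to that of Tgfbr1. Without the 3 Teff arrays highest in neutrophil markers it was −0.12 ± 0.16. A second Tgfbr2 probe lay between 4.79 and 5.82.

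Tgfb1, which encodes the ligand that T cells themselves can secrete, was 10.09, 10.37 and 9.69 in Ctrl Treg and 9.88, 9.49 and 8.75 in CKO Treg. In Teff it was 10.26, 10.65 and 9.60 for Ctrl and 10.39, 10.71 and 9.48 for CKO. Array 3 was the lowest in each of the 4 groups, and the groups overlapped. Group means were 10.05 ± 0.34, 9.37 ± 0.57, 10.17 ± 0.53 and 10.19 ± 0.64 (SD, n = 3 each) in the same order, and the averaged Treg minus Teff difference of −0.47 ± 0.27 did not pass.

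Smad2, a receptor-activated transducer, varied little: its group means were 7.31 ± 0.19 in Ctrl Treg, 7.24 ± 0.15 in CKO Treg, 7.08 ± 0.26 in Ctrl Teff and 6.89 ± 0.39 in CKO Teff (SD, n = 3 each). All 12 values lay between 6.46 and 7.52, and the averaged Treg minus Teff difference was 0.29 ± 0.15. Smad3, the other transducer, was lowest in CKO Teff by its main probe. It measured 9.49, 9.83 and 9.44 in Ctrl Treg, 9.54, 9.89 and 9.90 in CKO Treg, 9.69, 9.98 and 9.88 in Ctrl Teff, and 9.25, 9.62 and 8.79 in CKO Teff. The 3 CKO Teff values lay below all 3 Ctrl Teff values, while both Treg groups overlapped Ctrl Teff. The Treg minus Teff difference of Smad3 was −0.26 in Ctrl and 0.56 ± 0.21 in CKO (adjusted p = 0.342).

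Ski, a SMAD-binding repressor, was 7.36, 7.52 and 6.83 in Ctrl Treg and 6.69, 7.00 and 6.18 in CKO Treg. In Teff it was 7.36, 8.06 and 7.21 for Ctrl and 7.49, 8.01 and 7.03 for CKO. The highest CKO Treg array lay just under the lowest CKO Teff array. The Treg minus Teff difference in CKO cells was −0.89 ± 0.32 (adjusted p = 0.330) and the averaged one −0.60 ± 0.23 (adjusted p = 0.222). Without the 3 Teff arrays highest in neutrophil markers the averaged difference of Ski was −0.23 ± 0.22, and within the 2 array sets it was −0.71 and −0.24. Skil, the related repressor that TGF-beta itself induces in many cells, had group means of 9.08 ± 0.38 in Ctrl Treg, 8.53 ± 0.40 in CKO Treg, 8.62 ± 0.77 in Ctrl Teff and 8.38 ± 0.56 in CKO Teff (SD, n = 3 each). Its groups overlapped throughout, with array 2 of Ctrl Teff at 9.46 and array 3 at 7.95, a wider spread than any of its group differences. A second kept Skil probe lay between 5.07 and 6.61.

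Rara, the retinoic acid receptor, had weak signal, above the array median on 10 of 12 arrays. It measured 5.16, 5.40 and 5.17 in Ctrl Treg, 4.95, 4.70 and 4.75 in CKO Treg, 4.69, 4.96 and 4.66 in Ctrl Teff, and 5.15, 5.24 and 4.63 in CKO Teff. The Ctrl Treg arrays lay above all CKO Treg and all Ctrl Teff arrays. In Ctrl cells the Treg minus Teff difference was 0.48 ± 0.17 (unadjusted p = 0.0170, adjusted p = 0.314).

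**Figure D2:**
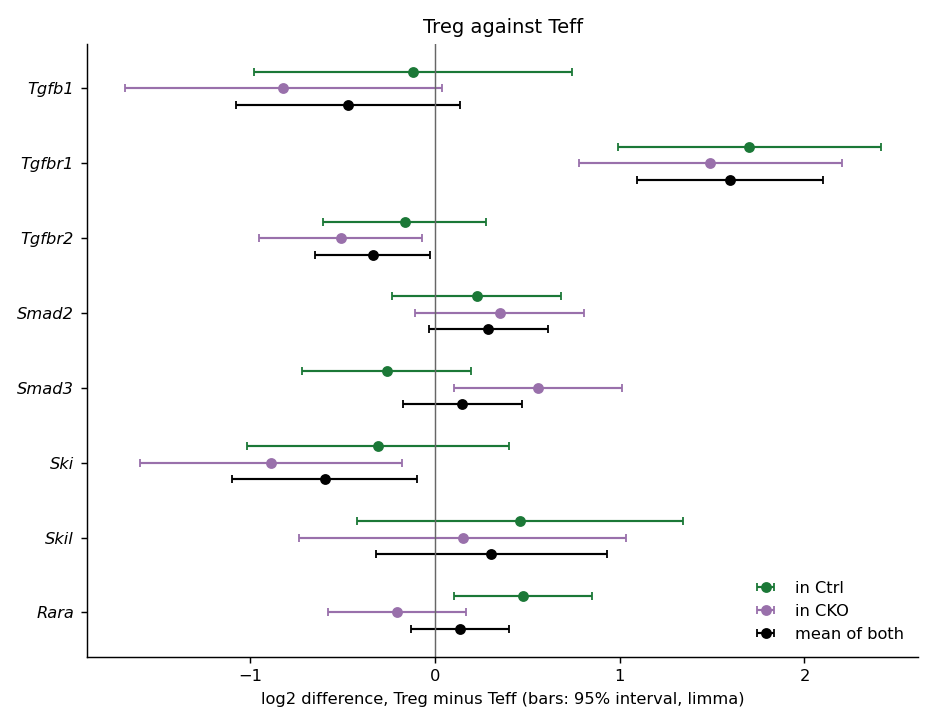
Log2 difference of Treg minus Teff (x axis) for the 8 tested members (y axis) in Ctrl, in CKO and as the mean of both; points are limma estimates from 3 arrays per group and bars 95% intervals. Tgfbr1 lies to the right of 0 in all 3 comparisons, with a mean of 1.60, and no other member passed.

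Genotype was compared within each cell type, CKO minus Ctrl. Same-numbered CKO and Ctrl arrays of a cell type varied together (residual correlations across genes of 0.348 to 0.737 in all 6 pairs), so the value from a fit with these pairs is given wherever it changes a call. In Treg most members were lower on the CKO arrays. Relative to the Ctrl array of the same number, Ski differed by −0.67, −0.52 and −0.65 in pairs 1, 2 and 3, the most even of the members. Tgfbr1 differed by −0.40, −1.20 and −0.63, Tgfbr2 by −0.66, −0.56 and −0.30, and Tgfb1 by −0.22, −0.88 and −0.94. Skil differed by −0.66, −0.26 and −0.72, and Rara by −0.21, −0.70 and −0.43. These 6 members were lower in 3 of 3 Treg pairs, where 18.2% of all tested genes were. Smad3 was higher in all 3 Treg pairs (17.6% of all genes), and Smad2 had both signs (−0.06, 0.22 and −0.35).

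By limma without pairs, 0 of the 8 members passed in Treg (0.099% of all genes did), and 3 had an unadjusted p under 0.05 (5.33% of all genes): Tgfbr1 at −0.74 ± 0.32, Tgfbr2 at −0.51 ± 0.20 and Rara at −0.45 ± 0.17, with adjusted p of 0.893, 0.807 and 0.738. Tgfbr2 and Rara had no overlap between the groups, as had 12.3% of all genes. The second kept Tgfbr2 probe gave only −0.12 ± 0.20 (unadjusted p = 0.545 by limma). Its groups overlapped, and it was higher on the CKO array of pair 2 (5.35 against 5.16). With pairs, Ski was lower in CKO Treg by 0.61 ± 0.11 on the log2 scale (SE) and passed with an adjusted p of 0.0316, where 2.18% of all genes passed; without pairs its SE was 0.32 and its adjusted p 1.00. This call was lost when any of the 3 Treg pairs was left out (adjusted p = 0.113 to 0.180). With pairs 6 members had an unadjusted p under 0.05, where 14.1% of all genes had; among these Tgfbr1 and Tgfb1 had adjusted p of 0.0542 and 0.0681 and did not pass. The median of the 8 members was −0.53, against 0.00 over all tested genes.

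Neutrophil markers moved with these Treg pairs: their mean was 9.58 on the Ctrl and 8.50 on the CKO array of pair 1, 6.45 and 6.21 in pair 2, and 9.11 and 8.66 in pair 3, with 10 of 10 markers above the filter. The T cell marker mean was 10.74 and 10.18, 10.22 and 10.20, and 10.50 and 10.04 in the same pairs. The mean of the 5 Treg markers was 10.61 and 9.60, 10.57 and 9.64, and 10.09 and 9.45, lower on the CKO array of every pair. Genes within these lists differed. Il2ra, Ctla4, Ikzf2 and Tnfrsf18 were lower in all 3 pairs, but Foxp3 was higher on the CKO array of pair 3 (7.85 against 7.29). In the T cell list Cd28 was higher on the CKO array of pairs 2 and 3. The myeloid and dendritic mean was 7.06 and 6.99, 6.65 and 7.30, and 6.27 and 6.80 on the Ctrl and CKO arrays. The part of these markers in the member values was not tested.

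In Teff Smad3 and Tgfbr1 had the most negative genotype differences of the 8 members. Tgfbr1 differed by −0.37, −0.53 and −0.71 in pairs 1 to 3, and its mean difference of −0.53 ± 0.32 did not pass with or without pairs. Smad3 differed by −0.44, −0.36 and −1.09 in pairs 1 to 3, a mean of −0.63 ± 0.21 with no overlap between the groups, as in 6.77% of all genes (unadjusted p = 0.0114, adjusted p = 1.00). The second kept Smad3 probe gave −0.41 ± 0.48 in Teff (unadjusted p = 0.402 by limma), and its Ctrl and CKO Teff groups overlapped. Ski stood at 0.14, −0.05 and −0.18, and Tgfb1 at 0.13, 0.06 and −0.12, both on either side of 0. Of the 8 members, 4 (Tgfbr1, Smad2, Smad3 and Skil) were lower in 3 of 3 pairs, where 17.7% of all genes were. By limma 0 of 8 passed (0.0165% of all genes), with 1 at an unadjusted p under 0.05 (4.17% of all genes), and with pairs 0 passed (0.099% of all genes), with 2 at an unadjusted p under 0.05 (10.4%). No member was higher in 3 of 3 Teff pairs, where 12.8% of all genes were. The median of the members was −0.17, against −0.02 over all genes.

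Markers of other cells moved with the Teff pairs as well. The T cell marker mean was lower on the CKO array of all 3 pairs, at 10.26 and 9.87, 10.29 and 9.70, and 10.34 and 9.98 on the Ctrl and CKO arrays. In all 3 pairs the CKO array was higher for the mean of the CD8 and NK cell list (5.79 and 6.69, 5.81 and 7.49, 5.67 and 5.81) and of the myeloid and dendritic list (5.65 and 7.21, 7.15 and 7.85, 5.63 and 6.63). Genes within these lists differed. Klrd1, Klre1 and Klra7 were higher on the CKO array of all 3 pairs, but Cd8b1 was lower in pairs 1 and 2. Csf1r was lower in all 3 pairs and Lyz2 in pair 2. Basophil and mast cell markers were 4.75 and 7.64 in pair 1, 5.11 and 7.29 in pair 2 and 4.48 and 4.65 in pair 3, and neutrophil markers 8.35 and 9.48, 10.43 and 9.86, and 6.51 and 7.38. The part of these markers in the Teff genotype differences and in the interaction was not tested.

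By its main probe Tgfbr1 was lower on the CKO array of all 6 pairs, 3 in each cell type. Averaged over Treg and Teff the difference was −0.64 ± 0.23, with an adjusted p of 0.695 without pairs. With pairs its SE was 0.11 and its adjusted p 0.0303, where 2.27% of all genes passed, and the change amounts to 1.56-fold. It was 1 of 5 members with an unadjusted p under 0.05 in that fit, where 13.6% of all genes had one. Leaving out any pair other than Treg pair 1 ended this call (adjusted p = 0.0604 to 0.0890). The second kept Tgfbr1 probe gave an averaged difference of −0.24 ± 0.12 (unadjusted p = 0.079 by limma without pairs). That probe was higher on the CKO array of Treg pair 1 (5.54 against 5.52) and of Teff pair 2 (4.68 against 4.66). Skil, by its main probe, was also lower in all 6 pairs, but did not pass. The second kept Skil probe was higher on the CKO array of Teff pair 3 (5.55 against 5.31). Without pairs 0 of 8 members passed in the average (0.116% of all genes), with Tgfbr1 and Tgfbr2 at an unadjusted p under 0.05 (5.5% of all genes). All 8 averaged differences were negative, from −0.64 to −0.11, with a median of −0.32 against −0.01 over all genes.

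The interaction subtracts the Teff genotype difference from that of Treg and asks whether CKO cells differ from Ctrl cells to an unequal extent in the 2 populations. By limma 0 of 8 members passed (0.0165% of all genes), with Smad3 and Rara at an unadjusted p under 0.05 (3.48% of all genes). With pairs 0 of 8 passed (0.0413% of all genes) and 4 had an unadjusted p under 0.05 (11.4%). Smad3 gave 0.82 ± 0.29 (adjusted p = 1.00, and 0.232 with pairs): the CKO array was higher in 3 of 3 Treg pairs, by 0.06, 0.06 and 0.46, and lower in 3 of 3 Teff pairs. Rara gave −0.68 ± 0.24 (adjusted p = 1.00, and 0.236 with pairs), with Teff pairs of 0.45, 0.28 and −0.02 against the negative Treg pairs above. For Ski the interaction was −0.58 ± 0.45, so its call in Treg with pairs is not shown to be particular to Treg (adjusted p = 0.228 with pairs). The second kept probe of Smad3, at 6.65 to 8.77, gave an interaction of 0.63 ± 0.67, and it was lower on the CKO array of Treg pair 2.

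**Figure D3:**
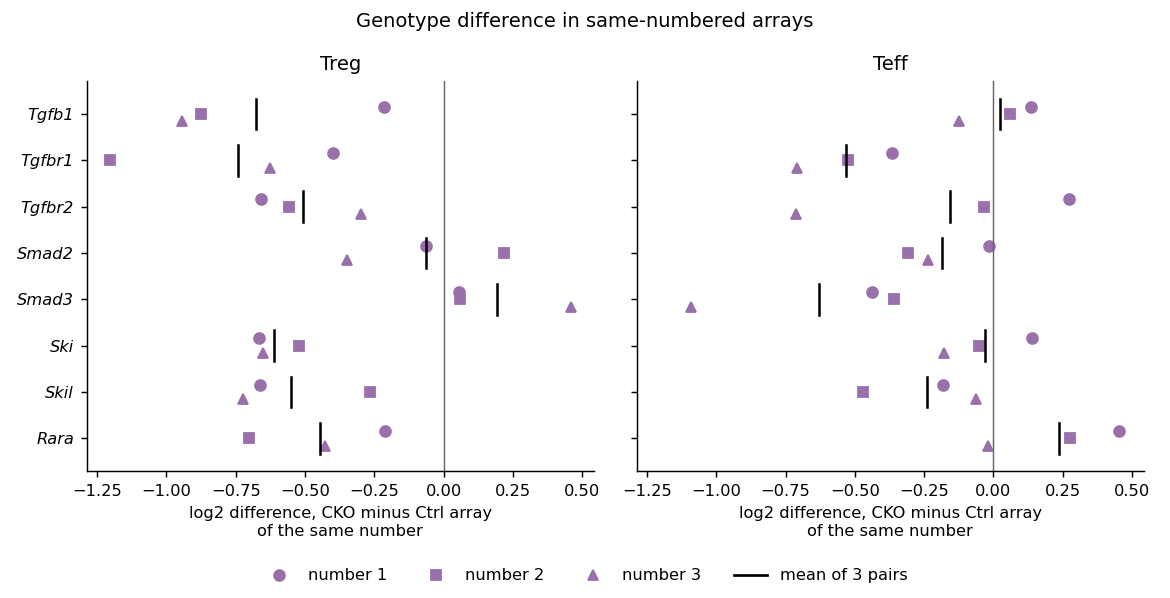
Log2 difference between the CKO and the Ctrl array of the same number (x axis) for the 8 tested members (y axis), in Treg and in Teff; symbols are the 3 pairs and lines their mean. In Treg 6 members have all 3 pairs below 0, and in Teff Ski and Tgfb1 lie on both sides of 0.

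Members also varied together across the 12 arrays. Tgfb1 and Ski had a Pearson r of 0.915, Tgfbr2 and Ski 0.802, and Tgfb1 and Tgfbr2 0.753, the highest 3 among the 28 member pairs. Ski and its relative Skil had 0.499. Tgfbr1 correlated with Tgfbr2 at −0.119 and with Ski at −0.308, its highest value being 0.584 with Smad2. These are descriptions over 12 arrays that share 4 groups and paired numbers. Among all tested genes those most like Tgfbr1 were Tfcp2l1 (r = 0.959), Fam83g (0.955) and Il27ra (0.948), a cytokine receptor chain. Tfcp2l1 had weak signal, with group means of 5.46 in Ctrl Treg, 5.17 in CKO Treg, 4.68 in Ctrl Teff and 4.52 in CKO Teff. Ski was closest to Kmt2a (0.947), a histone methyltransferase, Cdkn1a (0.941), the cell cycle inhibitor p21, and Tfip11 (0.939). Tgfb1 was closest to Relb (0.964), an NF-kappaB subunit, Dgat1 (0.952) and Furin (0.944), a proprotein convertase.

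Other genes of the pathway were taken from 7 lists, also chosen with earlier results of these data known. The lists hold 104 genes beside the members, of which 77 were tested. Averaged over the genotypes, 3 were higher and 4 lower in Treg than in Teff, where 3.2% of all genes passed in either direction. An unadjusted p under 0.05 was found for 19 of the 77, where 15.5% of all genes had one. The median of the 77 was −0.04 against 0.02 over all genes. Itgae, the integrin chain CD103 and a target of TGF-beta in T cells, was higher by 4.19 ± 0.38 (adjusted p = 0.000452), with group means of 12.36 in Ctrl Treg, 11.49 in CKO Treg, 7.73 in Ctrl Teff and 7.74 in CKO Teff. Ctla4, an inhibitory receptor, was higher by 2.33 ± 0.45 (adjusted p = 0.0201), and Wwp2, a ubiquitin ligase of SMADs, by 0.83 ± 0.09 (adjusted p = 0.00118). Ctla4 is also one of the Treg markers.

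Lower in Treg were Zeb2, a SMAD-binding repressor (−1.79 ± 0.23, adjusted p = 0.00225), and Smad1, a transducer of bone morphogenetic protein signals (−0.83 ± 0.16, adjusted p = 0.0203). Also lower were Id2, an inhibitor of E proteins (−0.84 ± 0.15, adjusted p = 0.0164), and Rgs16, a regulator of G protein signalling (−0.86 ± 0.20, adjusted p = 0.0433). By list, where 3.2% of all genes passed, 4 of 15 tested TGF-beta response genes passed, 2 higher (Itgae and Ctla4) and 2 lower (Id2 and Rgs16). Of 3 other SMADs 1 was lower (Smad1), of 12 repressors and nuclear cofactors 1 was lower (Zeb2), and of 13 SMAD ubiquitin ligases, deubiquitinases and phosphatases 1 was higher (Wwp2). Among 14 ligands and activators, 12 other receptors of the superfamily and 9 genes of retinoic acid signalling 0 passed by limma, with 1, 2 and 2 at an unadjusted p under 0.05 (15.5% of all genes). Those 5 were Itgb8, an integrin chain that activates latent TGF-beta (0.35 ± 0.14), the receptors Bmpr1a (0.27 ± 0.09) and Tgfbr3 (−0.50 ± 0.16), and the retinoid X receptors Rxra (0.45 ± 0.13) and Rxrb (0.27 ± 0.12). Itgae, Wwp2 and Zeb2 passed in all 29 alternatives, Id2 in 24, Ctla4 in 21, Smad1 in 20 and Rgs16 in 14. Ctla4 was lost without Ctrl Treg array 1 or 2, CKO Treg array 1 or 2, any Treg number or Teff number 1 (adjusted p = 0.0519 to 0.116). Id2 was lost without any Treg number or Teff number 1 (0.0530 to 0.0776), and Smad1 without Ctrl Treg array 1 or 2, Ctrl Teff array 1, any Treg number or Teff number 1 or 2 (0.0503 to 0.101). Rgs16 was lost without any 1 of 9 single arrays, the exceptions being Ctrl Treg 1, CKO Treg 1 and CKO Teff 3 (0.0580 to 0.116). Without the 3 Teff arrays highest in neutrophil markers Id2, Smad1 and Rgs16 did not pass (0.0506, 0.137 and 0.210).

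**Figure D4:**
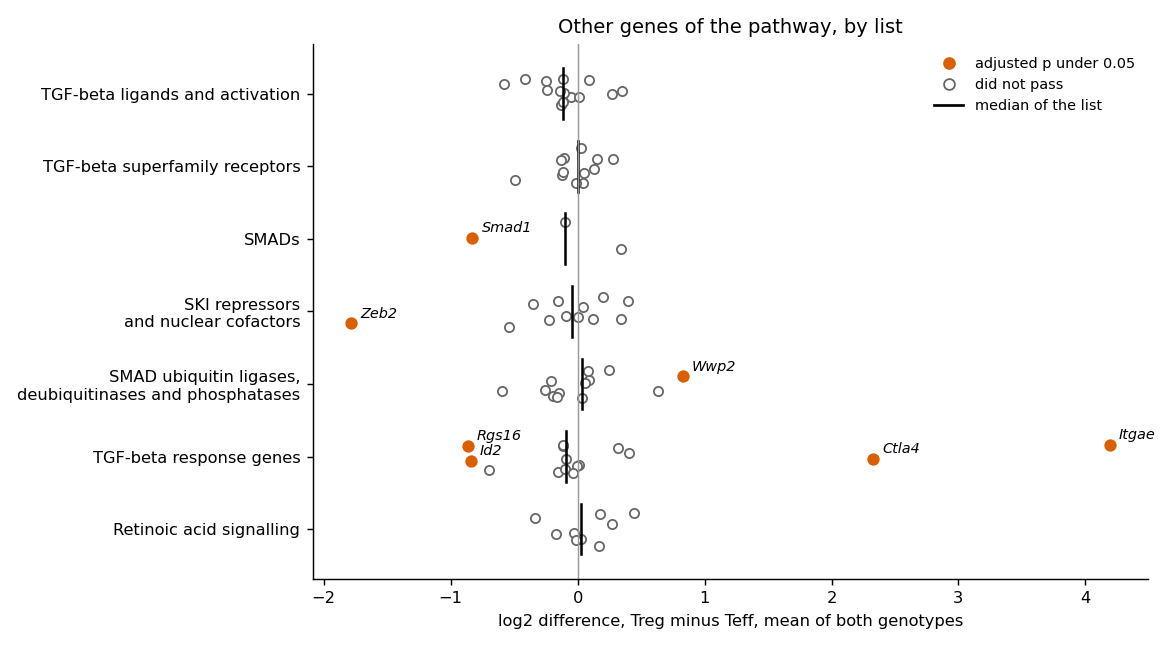
Log2 difference of Treg minus Teff averaged over the genotypes (x axis) for the 77 tested pathway genes beside the members, by list (y axis); filled points have an adjusted p under 0.05 and lines are list medians. Itgae lies farthest to the right at 4.19, and Zeb2 lies at −1.79.

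Genotype was compared for the same 77 genes. Without pairs 0 of 77 passed in Treg, in Teff or averaged by limma, with 6, 5 and 7 at an unadjusted p under 0.05, where 5.33%, 4.17% and 5.5% of all tested genes had one. In Treg the smallest p belonged to Nrros, which tethers latent TGF-beta to the cell surface, at −0.89 ± 0.29 (unadjusted p = 0.0110), and to Rxra at −0.52 ± 0.18 (unadjusted p = 0.0153). With pairs 3 were lower in CKO Treg: Cdkn1a at −0.89 (adjusted p = 0.0122), Ctla4 at −1.13 (adjusted p = 0.0316) and Ep300, a histone acetyltransferase that SMADs recruit, at −0.52 (adjusted p = 0.0437), where 2.18% of all genes passed. Of 37 alternatives Cdkn1a and Ctla4 passed in 4 each and Ep300 in 1. In Teff Ctla4 was lower with pairs, at −1.71 (adjusted p = 0.0285; 0.099% of all genes passed), which was 1 of 30 alternatives. Averaged over both cell types and with pairs, Ctla4 (−1.42) and Cdkn1a (−0.47) were lower, and Tgm2, a transglutaminase induced by retinoic acid (1.66, adjusted p = 0.0218), and Id3, a relative of Id2 (0.67, adjusted p = 0.0498), were higher, where 2.27% of all genes passed. Of 35 alternatives Ctla4 passed in 8, Cdkn1a and Tgm2 in 2 each, and of 34 Id3 passed in 1. Itgae stood at −0.87 in CKO minus Ctrl Treg and did not pass (adjusted p = 0.113 with pairs). Of the 15 tested TGF-beta response genes 11 were negative in Treg, with a median of −0.13 against 0.00 over all genes, and 9 in Teff, with a median of −0.02 against −0.02.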

How the data were processed

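The authors deposited 1 log2 intensity per probe for each of 12 arrays, a scale read from the values' range. GenomeStudio and limma 3.30.11 appear in the submitters' processing notes. How background was corrected and arrays were normalized is not given in the sources. Array medians (4.655 to 4.677) were nearly equal, so values were used as deposited. The number of arrays limits the precision.

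Of 31641 probes, 28197 had 1 gene symbol in GEO's platform annotation, 5 had several and 3439 none. A probe was kept when above its array's median on at least 3 of 12 arrays (17579 probes), and a gene took its kept probe with the highest mean, giving 12119 genes. For 3764 genes several probes were kept. Differences were fitted with limma 3.58.1 in R 4.3.3 (lmFit, eBayes; the data.table package, version 1.17.8), with 1 mean per group and all arrays, and tested two-sided in 7 comparisons. The threshold was an adjusted p under 0.05 (Benjamini-Hochberg over all tested genes). The scripts were tested on simulated data.

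Pairing was checked through the residual correlation, across genes, of same-numbered arrays: 0.519 to 0.589 for CKO and Ctrl in Treg, 0.348 to 0.737 in Teff, but −0.266 to 0.265 between Treg and Teff of Ctrl and 0.0413 to 0.325 of CKO. Genotype results are therefore given with the replicate number within a cell type as a block where that changes a call. Alternatives were scaling, filter, probe choice, eBayes settings, array weights, blocks, only the groups compared and left-out arrays or pairs; the array set block, values within sets, the block without pairs and leaving out 3 Teff arrays were added after seeing the data.

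Named genes are all members, pathway genes past the threshold or with the smallest p, and the 3 genes most correlated with Tgfbr1, Ski and Tgfb1. The members and all lists were chosen with earlier results of these data known. Upstream windows and their build (GRCm38.p6) are those of RefSeq.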

Additional observations from a re-analysis of the deposited data

Results flagged for a closer look

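Smad3 was singled out because its genotype difference had opposite signs in the 2 cell types: the CKO array was higher in all 3 Treg pairs and lower in all 3 Teff pairs. The Treg difference minus the Teff difference was 0.821 on the log2 scale (group means 9.59 and 9.78 in Ctrl and CKO Treg, 9.85 and 9.22 in Ctrl and CKO Teff). By limma the interaction had an unadjusted p of 0.0174 and an adjusted p of 1.00, so it did not pass over all genes. These values are those of the main probe. The second kept Smad3 probe was lower, not higher, on the CKO array of Treg pair 2 (7.66 against 7.84).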

How the results depend on the processing

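Member counts past the threshold moved as follows. For Treg minus Teff in Ctrl the count of 1 (Tgfbr1) became 0 without a filter (adjusted p = 0.0505) and with only the groups compared (0.0816), and ranged from 0 to 1 over left-out arrays or pairs. In CKO the count of 0 became 1 with trend and robust settings (Tgfbr1, 0.0465) and 3 with the replicate block over all groups, where Tgfbr1 had 0.0212, Ski 0.0147 and Tgfb1 0.0486. The averaged Treg minus Teff count of 1 became 3 with that replicate block (Ski 0.00503, Tgfb1 0.0482). For CKO minus Ctrl the count of 0 became 1 with the replicate block within cell type, both in Treg (Ski) and averaged (Tgfbr1), and lay between 0 and 1 when that block was fitted without single pairs. Genotype counts in Teff and for the interaction were 0 in every alternative run, and no member value with an unadjusted p under 0.05 changed sign. Of the 56 member values 14 had the opposite sign in 1 to 5 alternatives, none of them with an unadjusted p under 0.05 in the main setting; among them were Tgfbr1 for the interaction (−0.51 to 0.03), Tgfb1 averaged between Treg and Teff (−0.79 to 0.01) and Ski between genotypes in Teff (−0.28 to 0.23). The cause of these moves was not tested. Tgfbr1, averaged over genotypes, passed in all 29 alternatives (adjusted p = 0.000789 to 0.0384). Quantile normalization or centring moved the median of all genes by under 0.1 in every comparison. With 3 arrays per group, signal near the array median, as for Rara and Smad7, limits what can be seen.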
